A study of Mus musculus with 8 samples.

Results

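The genes described here encode the phospholipase C, protein kinase C (PKC) and calcium signalling machinery of the gonadotrope, the pituitary cell that secretes luteinizing hormone and follicle-stimulating hormone. They form a list of 48 genes of 12 roles, and each was found as 1 of the 55523 entries of the count table by its symbol. Cells were sorted by EGFP fluorescence from pituitary glands of Ad4BP-BAC-EGFP mice, in which a bacterial artificial chromosome of the *Nr5a1* (Ad4BP) gene drives EGFP, and RNA was sequenced from 4 female and 4 male samples. Apart from sex all samples shared this genotype and sort, with no treatment, and the age and the number of animals per sample are not given in the sources used here. Because the study excluded male replicate 1, the sexes were compared without it, and its values are given apart. The p-values measure the spread between these samples, which no label describes as separate animals and which may be technical.

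The pathway is the main route by which gonadotropin-releasing hormone acts on this cell. Its receptor couples through the Gq class of G proteins to phospholipase C β, which splits a membrane phosphoinositide into inositol trisphosphate (IP3) and diacylglycerol. IP3 opens calcium channels of the endoplasmic reticulum, diacylglycerol recruits PKC, and the calcium signal is read by calmodulin and its targets, the CaM kinases and the phosphatase calcineurin, which acts on NFAT transcription factors. Pumps (SERCA into the endoplasmic reticulum, PMCA out of the cell) end the signal, and STIM and Orai proteins refill the store.

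The total count was between 18774578 and 31302588 per sample, so the floor of 3 counts lay between 0.0918 and 0.147 CPM, the count scaled by the normalized size of its library, which covers counting error only. The summed CPM of 5 gonadotrope markers (*Lhb*, *Fshb*, *Cga*, *Gnrhr*, *Nr5a1*) was between 21525 and 34768 in females and between 67410 and 76468 in male replicates 2 to 4. The markers did not move as one. *Fshb* was higher in these males (17062 to 30669 CPM against 1398 to 5706 CPM), *Lhb*, *Cga* and *Gnrhr* overlapped between the sexes, and *Nr5a1* was 864 to 1263 CPM in females and 589.9 to 795 CPM in these males. The sum was 28589 in male replicate 1, whose *Nr5a1* was 16.4 CPM. Markers of other pituitary cells were present in every sample. The lowest sum was 12435 CPM for 3 somatotrope markers, 10097 CPM for 4 corticotrope markers and 1631 CPM for the lactotrope marker *Prl*. It was 206 CPM for 3 melanotrope markers and 84.7 CPM for 3 thyrotrope markers. The sum of 4 stem cell markers was higher in females, at 289.9 to 427 CPM against 149 to 186 CPM in males 2, 3 and 4, and it reached 314 CPM in male 1. Sums for 3 other cell types also did not overlap between the sexes and were higher in these males, at 64531 to 143859 CPM against 12435 to 58249 CPM for somatotropes, 276 to 378 CPM against 84.7 to 223 CPM for thyrotropes and 157 to 408 CPM against 111 to 138 CPM for pericytes. The somatotrope sum was nearly all *Gh*, which was not called (edgeR adjusted p = 0.289). *Pou1f1* was also higher in these males, and *Ghrhr* overlapped, at 2.96 to 25.6 CPM in females and 8.82 to 61.3 CPM in these males. The thyrotrope and pericyte sums were carried by *Tshb* and *Rgs5*. *Dio2* was 63.3 to 138 CPM in females and 38.5 to 49.99 CPM in these males. *Pdgfrb* and *Acta2* overlapped between the sexes with higher means in females. Of the stem cell markers, *S100b* overlapped between the sexes. Of 13 marker lists of the pituitary and its surroundings, *Aif1* (macrophages) and *Nkx2-1* (pituicytes and nerve) were the markers at 0 counts in at least 1 sample. In sorted populations fewer cells of a type and less RNA per cell cannot be told apart.

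**Figure D1:**
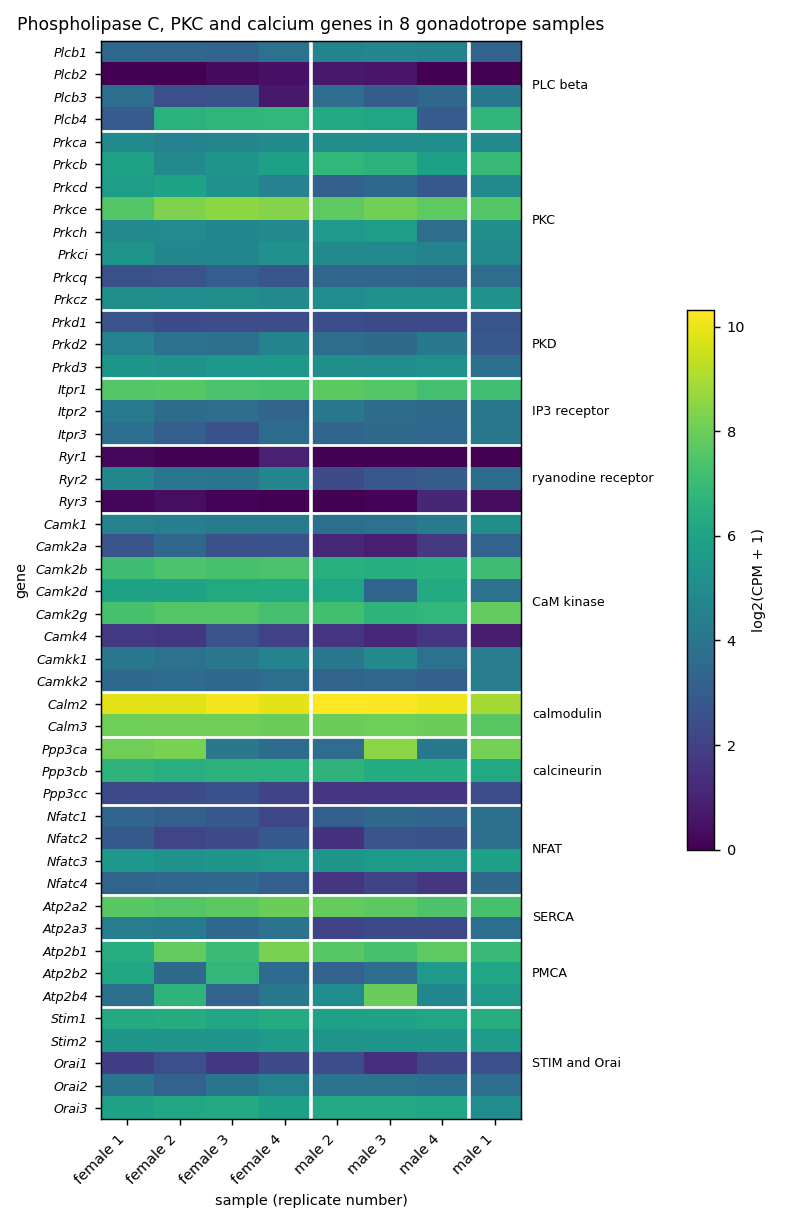
Each row is 1 of the 48 genes, grouped by role, and each column 1 sample, with females at the left, male replicates 2 to 4 in the middle and male replicate 1 at the right. Colour gives log2(CPM + 1), which is not scaled by gene length, so colours are to be read along a row. *Ppp3ca* and *Plcb4* change most visibly between samples of the same sex, and *Prkcd*, *Nfatc4* and *Atp2a3* are darker in male replicates 2 to 4.

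In the map of levels, each gene can be followed across the 8 samples. Of the 48 genes, 44 had at least 1 CPM in every female sample, 44 had it in each of male replicates 2 to 4, and 43 had it in all 4 males. Levels were compared between genes only per kilobase of exon, because longer genes collect more reads. On the scale of mean CPM per kilobase, calmodulin was the most abundant of the roles, at 779.7 in females and 911 in males. PKC followed at 74.1 in females and 65.9 in males, then STIM and Orai at 51.1 and 51.3, the CaM kinases at 57.7 and 40.0, and SERCA at 38.0 and 34.6. The ryanodine receptors were lowest, at 0.740 in females and 0.218 in males. The order is that of the mean of the sexes, and it depended on the length used. With the longest transcript in place of all exons, the CaM kinases (95.8) were above STIM and Orai (62.4), and calcineurin (54.9) was above SERCA (39.0). The samples of PKC were above those of STIM and Orai within each sex, whereas STIM and Orai overlapped with the CaM kinases in females, at 48.2 to 54.3 and 53.2 to 60.1, and SERCA overlapped with calcineurin in each sex.

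Several roles were dominated by a single gene. *Calm2* held 86.0% of the calmodulin level per kilobase in females and 88.4% in males, *Itpr1* held 83.7% and 83.5% of the IP3 receptors, and *Atp2a2* held 92.4% and 98.0% of SERCA. The leading gene held less of PKC, of STIM and Orai, and of NFAT. *Prkce* held 56.6% and 49.2% of PKC, *Orai3* held 60.9% and 65.5% of STIM and Orai, and *Nfatc3* held 55.3% and 65.6% of NFAT. With the longest transcript *Prkce* held 46.5% and 38.4%, and *Orai3* held 49.1% and 54.7%. By that length neither gene held a majority in both sexes. No CaM kinase held a majority, with *Camk2g* at 46.1% and 46.8% and *Camk2b* at 29.8% and 24.6%.

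**Figure D2:**
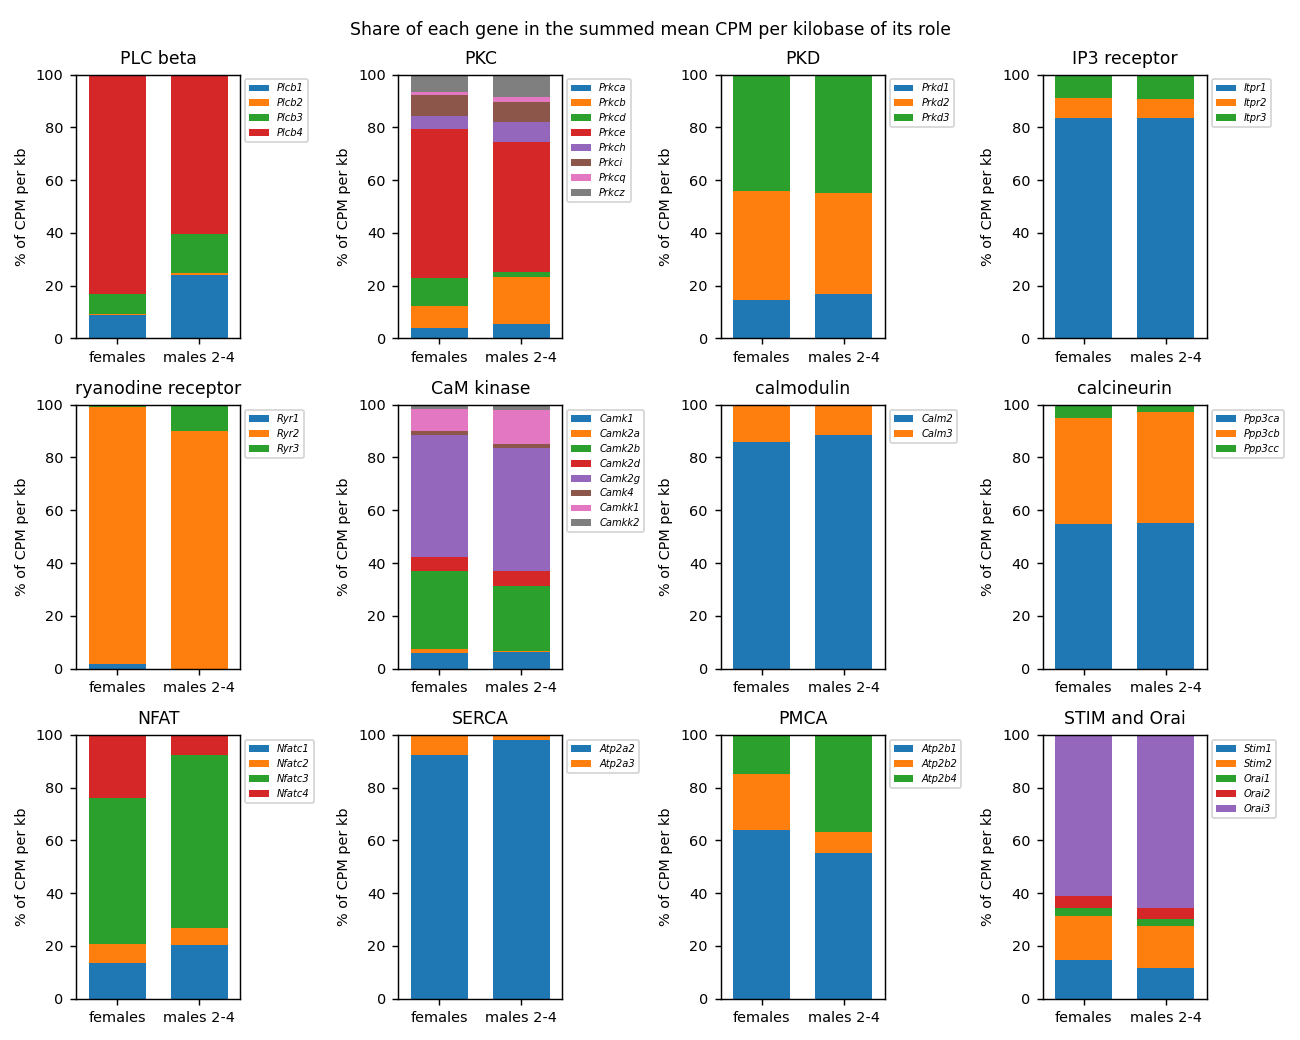
Each panel is 1 role, and the stacked bars give the share of each gene, in percent, of the summed mean CPM per kilobase in females (n = 4) and in male replicates 2 to 4 (n = 3). *Itpr1*, *Atp2a2*, *Calm2* and *Ryr2* fill most of their bars in both sexes, and *Nfatc4* and *Prkcd* are narrower in males.

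Between the sexes, 6 of the genes passed the test. *Plcb1* was higher in males, and *Prkcd*, *Ryr2*, *Camk2b*, *Nfatc4* and *Atp2a3* were higher in females. In edgeR's quasi-likelihood test with Benjamini-Hochberg adjustment over all 20152 genes tested, these were 6 of the 46 genes that passed the filter on low counts, or 13.0%, against 2.34% of all genes tested. Of the 46, 1 (2.17%) was called higher in males, against 0.983% of all genes, and 5 (10.9%) were called higher in females, against 1.35%. On the log2 scale the median change, male over female, was −0.14 for the 46 genes and −0.03 over all genes tested. The calls rested on the choice of samples. With male replicate 1 in the fit, edgeR called 0 of 45 genes tested, and 8 (17.8%) had an unadjusted p under 0.05, against 10.2% of all genes in that fit. The adjusted p of the 6 genes in that edgeR fit ranged from 0.147 to 0.595, and the log2 fold change was −1.01 for *Nfatc4*, −1.36 for *Atp2a3* and −1.70 for *Prkcd*. Without it, 14 (30.4%) had an unadjusted p under 0.05, against 19.9% of all genes. DESeq2 called 9, the same 6 and *Prkcq*, *Camk2a* and *Ppp3cc*, where it called 11.6% of all genes. Leaving out 1 library left 0 calls without female replicate 2, male replicate 2 or male replicate 4, 1 without female replicate 3 or male replicate 3, 3 without female replicate 1 and 4 without female replicate 4. Of all genes, 0.642%, 0.421%, 0.865% and 0.764% were called without female replicate 3, male replicate 3, female replicate 1 and female replicate 4. Where 0 were called, 14, 10 and 13 genes had an unadjusted p under 0.05 in edgeR without female replicate 2, male replicate 2 and male replicate 4, or 30.4%, 21.7% and 28.3% against 17.9%, 14.6% and 18.1% of all genes.

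**Figure D3:**
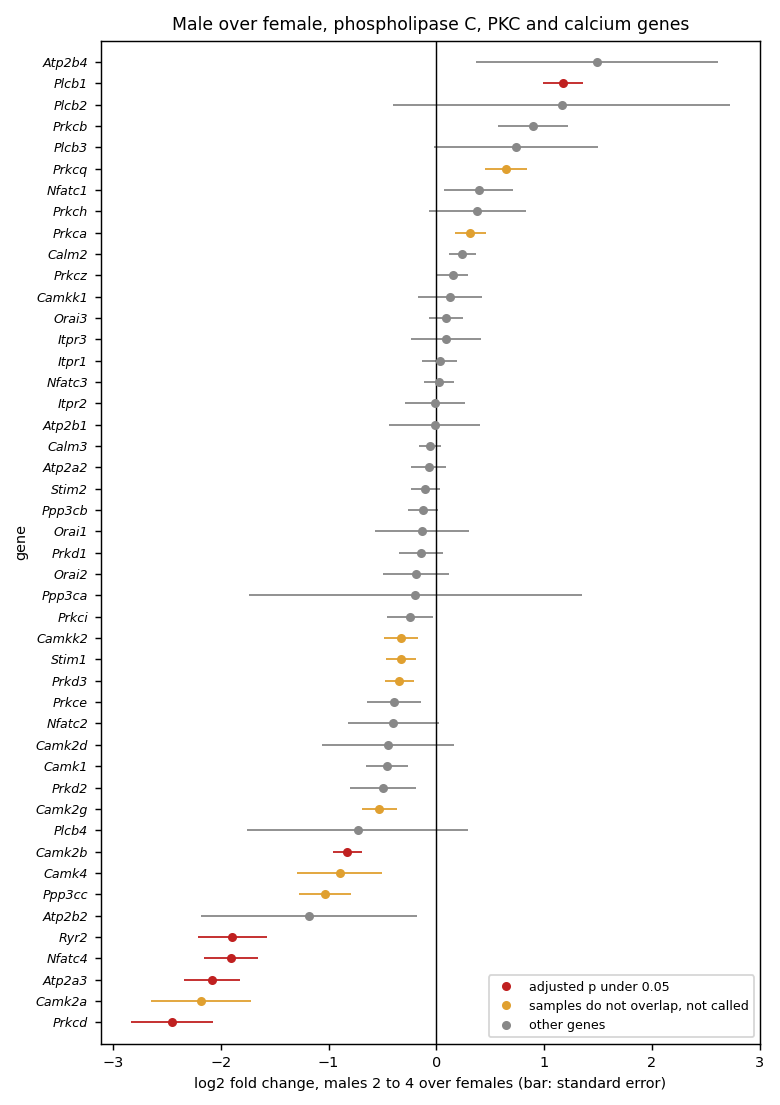
Points give the log2 fold change of male replicates 2 to 4 over females for the 46 genes tested, with bars for the standard error. The 6 called genes are red, and 5 of them lie left of 0, from −0.83 for *Camk2b* to −2.45 for *Prkcd*.

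The samples of the sexes did not overlap for 15 of the 46 genes tested (32.6%), where 22.5% of all genes tested did not overlap. Of these, 3 were higher in males (6.52%, against 11.6% of all genes) and 12 were higher in females (26.1%, against 10.9%). Beside the 6 called genes, they were *Prkca* and *Prkcq*, higher in males, and *Prkd3*, *Camk2a*, *Camk2g*, *Camk4*, *Camkk2*, *Ppp3cc* and *Stim1*, higher in females.

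Promoters are shown for *Prkcd*, *Ryr2*, *Nfatc4* and *Atp2a3*, the 4 genes with the largest called change toward females, to give the sequence around their start. The RefSeq windows (GRCm38.p6) run from 250 bases before the start to 50 after it, and 36 of the 48 genes had at least 1. Capitals mark CpG dinucleotides.
Prkcd promoter, chr14:30626159-30626458, minus strand: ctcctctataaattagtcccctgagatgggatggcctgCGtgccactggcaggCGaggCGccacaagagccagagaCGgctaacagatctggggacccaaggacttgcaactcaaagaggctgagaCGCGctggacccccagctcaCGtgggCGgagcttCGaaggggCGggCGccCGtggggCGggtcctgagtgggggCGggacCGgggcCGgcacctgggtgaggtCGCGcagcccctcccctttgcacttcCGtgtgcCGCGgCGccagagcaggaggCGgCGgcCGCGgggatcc
Ryr2 promoter, chr13:12106896-12107195, minus strand: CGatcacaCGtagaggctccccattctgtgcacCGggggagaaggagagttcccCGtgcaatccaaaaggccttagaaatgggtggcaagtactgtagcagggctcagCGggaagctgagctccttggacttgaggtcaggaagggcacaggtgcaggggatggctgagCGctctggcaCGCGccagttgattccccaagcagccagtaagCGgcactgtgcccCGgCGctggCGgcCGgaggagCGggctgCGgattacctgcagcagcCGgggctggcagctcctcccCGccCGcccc
Nfatc4 promoter, chr14:55824545-55824844, plus strand: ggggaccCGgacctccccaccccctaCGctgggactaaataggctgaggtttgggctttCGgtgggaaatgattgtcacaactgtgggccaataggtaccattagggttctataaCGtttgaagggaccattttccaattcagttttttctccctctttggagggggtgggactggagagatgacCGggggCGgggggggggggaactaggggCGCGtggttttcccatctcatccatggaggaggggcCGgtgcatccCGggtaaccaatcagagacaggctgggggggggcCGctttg
Atp2a3 promoter, chr11:72960919-72961218, plus strand: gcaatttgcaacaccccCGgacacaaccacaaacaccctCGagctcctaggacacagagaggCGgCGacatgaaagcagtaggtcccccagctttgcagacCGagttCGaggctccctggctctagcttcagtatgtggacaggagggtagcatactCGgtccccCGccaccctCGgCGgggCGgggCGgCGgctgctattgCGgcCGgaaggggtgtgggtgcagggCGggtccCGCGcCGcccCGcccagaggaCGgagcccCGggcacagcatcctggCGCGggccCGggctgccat
The table lists a second *Prkcd* promoter inside the gene, chr14:30610261-30610560, with 2 CpG dinucleotides and 51.3% GC. The 4 printed windows hold CpG dinucleotides in numbers of 26 for *Prkcd*, 18 for *Ryr2*, 11 for *Nfatc4* and 25 for *Atp2a3*. The median GC content was 68.0% over the 47 windows of the 36 genes and 52.7% over all 32851 windows of the table. Searched on both strands, the cyclic AMP response element TGACGTCA, the AP-1 motif TGACTCA and the NR5A1-type AAGGTCA were each in 1 of the 47 windows, and in 1.79%, 5.20% and 4.72% of all windows. The NFAT-type TGGAAA was in 7 of the 47 and in 21.4% of all windows. The RefSeq start of *Nfatc4* lies 1651 bases from the GENCODE start of its gene. In the windows printed only the *Nfatc4* promoter held 1 of these motifs, a TGGAAA on the opposite strand that begins 119 bases before the start.

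Phospholipase C β isoforms are the enzymes on which Gq acts. *Plcb1* (ENSMUSG00000051177.16, chr2:134786067-135475258, plus strand, GRCm38) was 10.3, 9.72, 9.30 and 13.6 CPM in females 1 to 4 and 24.4, 26.3 and 23.2 CPM in males 2, 3 and 4. Each of these males was above each female, whereas male replicate 1, at 8.83 CPM, was below all 4 females. The log2 fold change was 1.17 (standard error 0.18, adjusted p = 0.0346 by edgeR), or 2.26-fold, and a two-sided exact permutation test over the 7 samples gave p = 0.0286, the smallest it can give. *Plcb4*, the isoform with the highest mean per kilobase, was 6.68, 93.9, 109 and 114 CPM in the females and 77.1, 65.3 and 6.79 CPM in the males, so that female replicate 1 and male replicate 4 lay far below the others. *Plcb3* ranged from 0.649 to 12.3 CPM in females and from 7.19 to 11.7 CPM in males. *Plcb2* reached at most 0.622 CPM and was at 0 counts in 2 females, in male replicate 4 and in male replicate 1.

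PKC isoforms fall into a class that needs calcium and diacylglycerol (*Prkca*, *Prkcb*), a class that needs diacylglycerol alone (*Prkcd*, *Prkce*, *Prkch*, *Prkcq*) and an atypical class that needs neither (*Prkci*, *Prkcz*). *Prkcd* (ENSMUSG00000021948.17, chr14:30595354-30626210, minus strand) was 52.1, 61.8, 37.9 and 22.9 CPM in females and 8.31, 9.82 and 6.19 CPM in males. The lowest female was above the highest of these males, and male replicate 1, at 29.6 CPM, lay inside the female range. The log2 fold change was −2.45 (standard error 0.38, edgeR adjusted p = 0.0346), or 5.48-fold higher in females (exact permutation p = 0.0286). *Prkce*, the most abundant isoform per kilobase, was 188, 314, 380.0 and 337 CPM in females and 214, 276 and 217 CPM in males, which overlap. Its reads may be divided with *AC154542.1*, which shares its locus.

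*Prkca* was 28.6, 22.9, 25 and 28.4 CPM in females and 33.4, 32.1 and 34.0 CPM in males, and *Prkcq* was 4.88, 5.20, 7.41 and 5.80 CPM in females and 9.48, 9.70 and 8.62 CPM in males. Neither passed the edgeR test, at log2 fold changes of 0.31 (edgeR adjusted p = 0.284) and 0.65 (edgeR adjusted p = 0.135), while DESeq2 gave an adjusted p of 0.0387 for *Prkcq*. *Prkcb* was 46.6 ± 14.1 CPM in the 4 females and 88.2 ± 28.8 CPM in the 3 males (mean ± SD), with male replicate 4 at 55.9 CPM, inside the female range. *Prkch*, *Prkci* and *Prkcz* overlapped between the sexes, at 11.9 to 53.5 CPM over the 3 genes and 7 samples. Per kilobase, the level of the isoforms ran from 42.0 CPM for *Prkce* to 0.822 CPM for *Prkcq* in females, and from 32.4 to 1.31 CPM for the same genes in males.

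Protein kinase D enzymes are activated by PKC. None passed the test. *Prkd3* was 43.4, 37.7, 43.6 and 44.2 CPM in females and 34.3, 32.6 and 34.8 CPM in males, without overlap (log2 fold change −0.34, edgeR adjusted p = 0.214). In male replicate 1 it was 12.8 CPM, below every other sample. *Prkd2* was 18.2 ± 5.87 CPM in the 4 females and 13.1 ± 3.29 CPM in the 3 males (mean ± SD), and *Prkd1* was 4.61 ± 0.709 and 4.23 ± 0.336 CPM.

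IP3 receptors release calcium from the store. *Itpr1* was 189, 197, 166 and 158 CPM in females and 211, 192 and 150.2 CPM in males, at a log2 fold change of 0.03 (standard error 0.16, edgeR adjusted p = 0.947). *Itpr2* was 12.8 ± 3.95 CPM in the 4 females and 12.9 ± 3.01 CPM in the 3 males (mean ± SD), and *Itpr3*, whose locus is shared with *Mir7677*, was 9.28 ± 3.49 and 10.04 ± 0.781 CPM. The differences of the 3 receptors were smaller than the spread between replicates. The ryanodine receptor *Ryr2*, a channel opened by calcium itself and known from heart muscle, was higher in females. *Ryr2* (ENSMUSG00000021313.16, chr13:11553102-12106945, minus strand) was 26.6, 15.4, 14.8 and 26.0 CPM in females and 4.2, 5.88 and 6.92 CPM in males. Male replicate 1 lay between the sexes at 11.4 CPM. The log2 fold change was −1.89 (standard error 0.32, edgeR adjusted p = 0.0402), or 3.72-fold higher in females (exact permutation p = 0.0286). *Ryr1*, the skeletal muscle form, had 0 counts in the 4 male samples, where the floor was 0.112 to 0.138 CPM, and at most 0.952 CPM in females. *Ryr3* had at most 25 counts, or 1.15 CPM.

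Calmodulin binds calcium and carries the signal to the kinases. *Calm2* was 949.9, 908, 1125 and 954 CPM in females, 1267, 1220 and 1057 CPM in males and 477 CPM in male replicate 1, so the sexes overlapped. *Calm3* was 264 ± 8.22 CPM in the 4 females and 257 ± 1.57 CPM in the 3 males (mean ± SD). For both genes male replicate 1 was the lowest of the 8 samples.

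CaM kinase II (*Camk2a*, *Camk2b*, *Camk2d*, *Camk2g*) decodes repeated calcium pulses, and 1 of its 4 genes passed the test. *Camk2b* (ENSMUSG00000057897.14, chr11:5969644-6066362, minus strand) was 137, 165, 157 and 169 CPM in females and 92.3, 84.5 and 93.0 CPM in males. The log2 fold change was −0.83 (standard error 0.13, edgeR adjusted p = 0.0358), or 1.77-fold higher in females (exact permutation p = 0.0286), and male replicate 1 was 137 CPM, like the lowest female. *Camk2a*, the form best known from forebrain neurons, was 5.48, 10.2, 4.96 and 5.06 CPM in females, 1.2, 0.824 and 2.29 CPM in males and 8.69 CPM in male replicate 1. Its log2 fold change of −2.18 was the second largest toward females but missed the threshold (standard error 0.47, edgeR adjusted p = 0.0628), while DESeq2 gave an adjusted p of 0.000361. *Camk2g* was 159, 185, 185 and 151 CPM in females, 143, 104 and 112 CPM in males and 228 CPM in male replicate 1 (log2 fold change −0.53, edgeR adjusted p = 0.141). *Camk2d* was 60.2, 60.6, 75.4 and 78.6 CPM in females and 65.2, 9.33 and 78.9 CPM in males, with male replicate 1 at 13.6 CPM.

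None of the other CaM kinases passed the test. *Camk4*, a mostly nuclear kinase, was 2.36, 2.21, 5.20 and 3.12 CPM in females and 1.94, 1.27 and 2.06 CPM in males (edgeR adjusted p = 0.266). *Camkk2*, which activates *Camk1* and *Camk4*, was 10.5, 11.0, 10.01 and 12.1 CPM in females and 9.05, 9.44 and 7.98 CPM in males, a narrow gap of a log2 fold change of −0.33 (edgeR adjusted p = 0.317). *Camkk1*, with the same function, was 17.4 ± 4.08 CPM in the 4 females and 19.3 ± 7.41 CPM in the 3 males (mean ± SD), and *Camk1* was 19.9 ± 2.13 and 14.7 ± 3.11 CPM. Summed per kilobase over the 8 CaM kinases, the level was 53.2 to 60.1 in females, 37.0 to 43.5 in male replicates 2 to 4 and 65.4 in male replicate 1.

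Calcineurin is the phosphatase that calcium and calmodulin switch on, and *Ppp3ca*, *Ppp3cb* and *Ppp3cc* encode its catalytic subunits. *Ppp3ca* was 269, 296, 15.8 and 11.5 CPM in females, 11.9, 369 and 16.8 CPM in males 2, 3 and 4, with male replicate 1 at 285 CPM. It thus had a high and a low set of samples in each sex, and its log2 fold change of −0.19 had a standard error of 1.54. *Ppp3cb* was steady, at 95.9 ± 6.66 CPM in the 4 females and 89.4 ± 10.9 CPM in the 3 males (mean ± SD). *Ppp3cc* was 3.94, 4.27, 5.11 and 3.29 CPM in females, 2.10, 1.99 and 2.11 CPM in males and 4.44 CPM in male replicate 1. Its log2 fold change of −1.03 missed the threshold (standard error 0.24, edgeR adjusted p = 0.0748), while DESeq2 gave an adjusted p of 0.00352.

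NFAT factors enter the nucleus once calcineurin has removed their phosphates. *Nfatc4* (ENSMUSG00000023411.12, chr14:55823144-55833943, plus strand) was 8.91, 9.96, 10.7 and 7.53 CPM in females and 2.14, 3.30 and 2.11 CPM in males. Every female was above these 3 males, and male replicate 1, at 10.8 CPM, was above all 4 females. The log2 fold change was −1.90 (standard error 0.25, edgeR adjusted p = 0.0237), or 3.74-fold higher in females (exact permutation p = 0.0286). *Nfatc3*, the most abundant of the 4 per kilobase, was 44.2, 38.7, 43.1 and 46.8 CPM in females and 41.2, 47.6 and 45.2 CPM in males. *Nfatc1* and *Nfatc2* ranged from 1.86 to 9.78 CPM over the 7 samples and overlapped between the sexes.

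SERCA pumps return calcium to the endoplasmic reticulum. *Atp2a3* (ENSMUSG00000020788.15, chr11:72961169-72993044, plus strand) was 19.1, 17.4, 10.3 and 14.4 CPM in females and 3.22, 3.93 and 3.85 CPM in males, with male replicate 1 inside the female range at 12.8 CPM. The log2 fold change was −2.08 (standard error 0.26, edgeR adjusted p = 0.0206), or 4.23-fold higher in females (exact permutation p = 0.0286). *Atp2a2*, the widely expressed pump that made up most of SERCA, was 201, 188, 209 and 255 CPM in females and 235, 211 and 173 CPM in males (log2 fold change −0.07, edgeR adjusted p = 0.866).

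PMCA pumps carry calcium across the plasma membrane. *Atp2b1* was 84.6, 224, 131 and 304 CPM in females and 195, 157 and 212 CPM in males. *Atp2b2* was 69.3, 10.9, 111 and 11.3 CPM in females and 8.51, 12.5 and 46.6 CPM in males, and *Atp2b4* was 12.8, 102 and 8.6 CPM in females 1 to 3, 16.3 CPM in female 4 and 30.9, 244 and 27.2 CPM in males. None passed the test, and the standard errors of their log2 fold changes were 0.42, 1.0 and 1.13.

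STIM proteins sense the calcium of the store and open Orai channels. *Orai3* was 61.0, 72.4, 77.5 and 55.2 CPM in females, 75.8, 73.3 and 66.8 CPM in males and 31.6 CPM in male replicate 1. *Stim1* was 78.4, 83.3, 68.0 and 80.3 CPM in females, 58.2, 62.3 and 67.6 CPM in males and 85.6 CPM in male replicate 1, so that the lowest female was only just above the highest of these males (log2 fold change −0.33, edgeR adjusted p = 0.248). *Stim2* was 43.6 ± 3.85 CPM in the females (SD, n = 4) and 41.4 ± 2.05 CPM in the males (SD, n = 3). *Orai2* ranged from 8.59 to 22.2 CPM and *Orai1* from 1.65 to 4.76 CPM over the 7 samples, and for both the sexes overlapped.

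**Figure D4:**
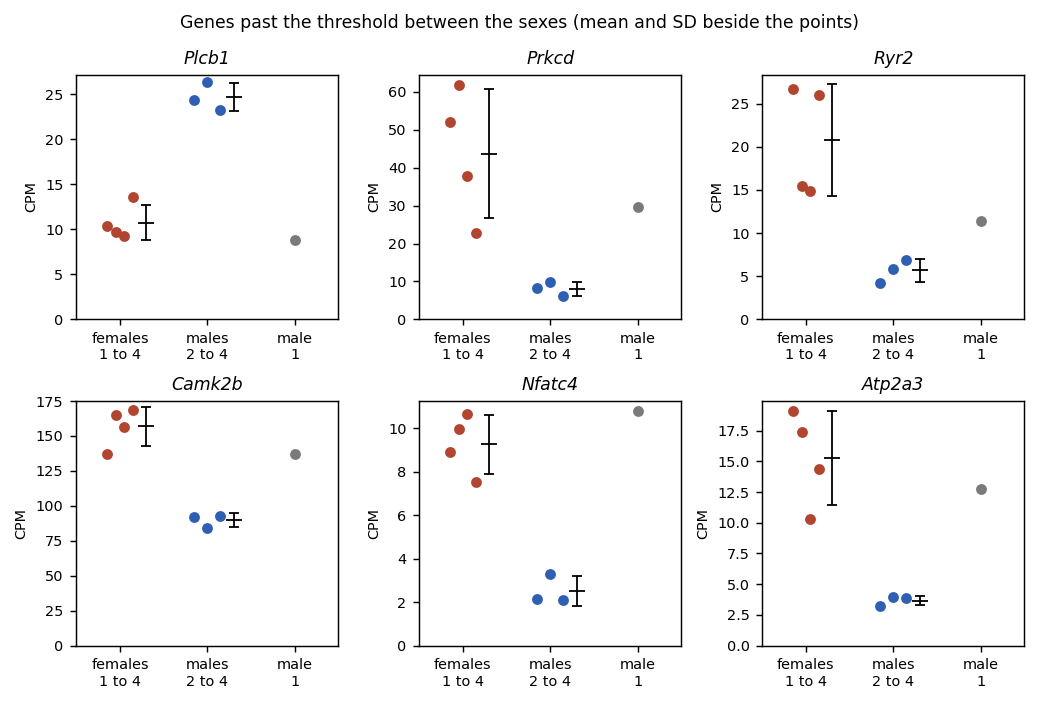
Each panel is 1 gene past the threshold, with CPM per sample in females, male replicates 2 to 4 and male replicate 1, and the mean and SD beside the first 2 sets. In each panel the 3 males lie apart from the 4 females, and male replicate 1 lies outside the range of the other males, toward or beyond the females.

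Male replicate 1 was above the other 3 males for each of the 5 genes called higher in females and below them for *Plcb1*. Over all called genes of the table, it was above them for 221 of the 273 higher in females (81.0%). It was below them for 171 of the 198 higher in males (86.4%). Among the 46 pathway genes tested, it was above the other males for 10 of the 12 higher in females without overlap (83.3%). It was below them for 2 of the 3 higher in males without overlap (66.7%). Over all genes tested these shares were 77.8% of 2202 genes and 81.4% of 2335 genes. Its marker sums for gonadotropes, somatotropes (30354 CPM), thyrotropes (105 CPM), melanotropes (244 CPM) and stem cells lay inside the female ranges and outside those of the other males. All 3 somatotrope markers and *Sox2*, *Sox9* and *S100b* of the stem cell markers were inside the female range in male replicate 1. *Cdh26*, at 7.33 CPM, was below the other 7 samples, and none of the 5 gonadotrope markers was inside the female range (*Lhb* and *Fshb* were above it, *Cga*, *Gnrhr* and *Nr5a1* below it). Its lactotrope sum (1631 CPM), stromal sum (95.9 CPM), pericyte sum (85.1 CPM) and erythroid sum (48.4 CPM) were below the other 7 samples, and its endothelial sum (693 CPM) was above them. Of the 4 stem cell markers, *Sox9* and *Cdh26* were called higher in females by edgeR, and *Fshb* of the gonadotrope markers and *Pou1f1* of the somatotrope markers were called higher in males. The part of these cells in the differences of the 6 genes was not tested.

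A few genes varied widely within a sex. Of the 39 genes with a mean of at least 5 CPM, 6 had samples of the same sex more than 5-fold apart (15.4%), against 15.3% of the 12647 genes of the table at that level. They were *Plcb3*, *Plcb4*, *Camk2d*, *Ppp3ca*, *Atp2b2* and *Atp2b4*. The samples that were high or low differed from gene to gene. *Ppp3ca* was high in females 1 and 2 and in males 1 and 3, while *Plcb4* was low in female 1 and male 4 and *Camk2d* was low in males 1 and 3. The table names loci by a running number of a transcript assembly, as it does for 47 of the 48 genes. Entries of the 2 numbers before and after held at most 22 counts in any sample for *Plcb4* (148 to 3566 counts), 16 for *Ppp3ca* (266 to 9838 counts) and 242 for *Camk2d* (249 to 2463 counts). They held up to 4523 counts for *Plcb3* (15 to 381 counts), 3268 for *Atp2b2* (219 to 3626 counts) and 7817 for *Atp2b4* (281 to 6526 counts), which also shares its own locus with *Mir6903*. Whether reads of these loci were lost in counting was not tested.

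**Figure D5:**
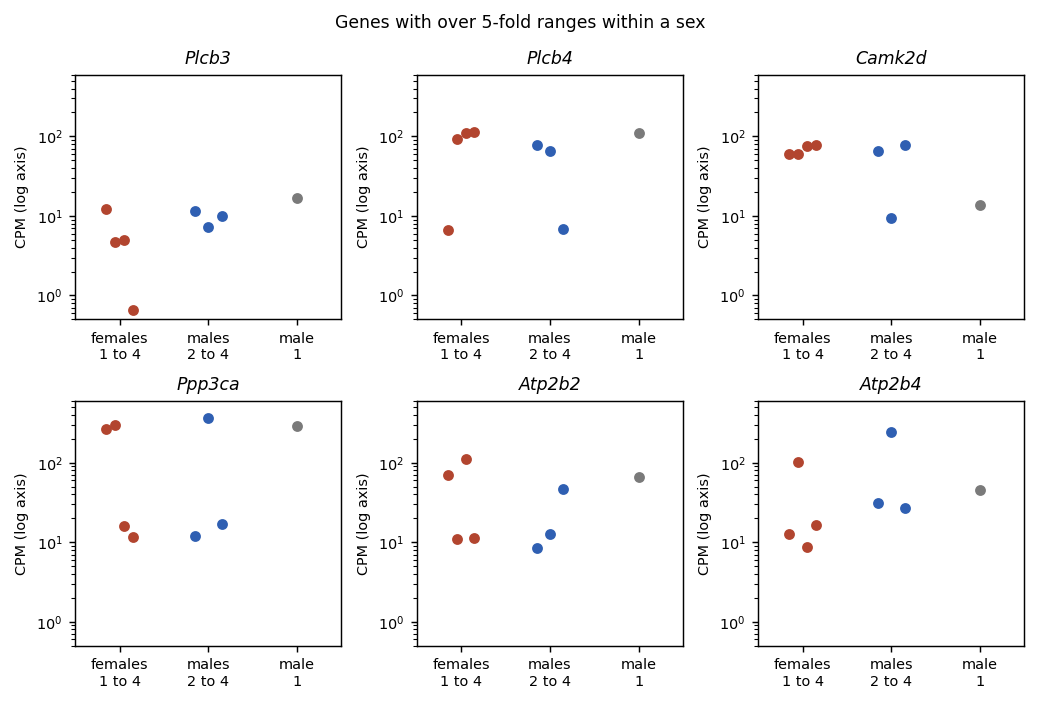
CPM on a log axis for the 6 genes with samples of a sex more than 5-fold apart, by sample, for females, male replicates 2 to 4 and male replicate 1. *Ppp3ca* splits in both sexes into samples of 269 to 369 CPM and samples of 11.5 to 16.8 CPM.

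Other genes of the pathway were taken from 9 lists, of which 142 of 151 genes were tested and 6 (4.23%) were called, against 2.34% of all genes. Among 18 PKC substrates and anchors, *Unc13c*, a diacylglycerol-binding protein of vesicle priming, was higher in males, at 23.1 to 28.2 CPM against 5.78 to 9.18 CPM (log2 fold change 1.81, edgeR adjusted p = 0.0161). *Marcks*, a membrane substrate of PKC, was higher in females, at 169.9 to 233 CPM against 78.6 to 102 CPM (log2 fold change −1.16, edgeR adjusted p = 0.0296). Of 9 exchangers and other pumps, the sodium-calcium exchanger *Slc8a2* was higher in females, at 9.58 to 15.5 CPM against 4.82 to 5.81 CPM (log2 fold change −1.37, edgeR adjusted p = 0.0371).

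Of 24 calcium-binding proteins, *Pdia3*, a disulfide isomerase of the endoplasmic reticulum, and *Ncald*, a neuronal calcium sensor, were higher in males. *Pdia3* was 856 to 1221 CPM in males and 446 to 562 CPM in females (log2 fold change 0.995, edgeR adjusted p = 0.0337), and *Ncald*, whose locus holds other entries that may divide its reads, was 96.0 to 101 CPM and 28.0 to 53.3 CPM (log2 fold change 1.43, edgeR adjusted p = 0.0417). *Hpcal4*, a related sensor, was higher in females, at 54.0 to 88.1 CPM against 28.7 to 35.7 CPM (log2 fold change −1.15, edgeR adjusted p = 0.0417). In male replicate 1 the levels were 27.7 CPM for *Unc13c*, 161 CPM for *Marcks*, 10.5 CPM for *Slc8a2*, 414 CPM for *Pdia3*, 34.0 CPM for *Ncald* and 28.4 CPM for *Hpcal4*. Only *Unc13c* and *Hpcal4* of these were close to the other males, and *Pdia3* was below all females. Of the list genes, edgeR called only *Unc13c* with all 8 samples, and 0 without male replicate 2 or male replicate 3, where 35 (24.5%) and 32 (22.4%) had an unadjusted p under 0.05, against 14.6% and 15.0% of all genes.

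In the remaining 6 lists no gene passed the edgeR test. An unadjusted p under 0.05 was found for 18 of their 91 genes (19.8%), near the 19.9% of all genes, and DESeq2 called 12 (13.5%), where it called 11.6% of all genes. The edgeR gene with the smallest p was *Plcxd1* among 13 other phospholipases C (edgeR adjusted p = 0.108), *Dgkg* among 9 diacylglycerol kinases (0.0783), *Pip5k1b* among 25 genes of the inositol lipid cycle (0.0691), *Camk2n1*, an inhibitor of CaM kinase II, among 16 regulators of calcineurin and calmodulin (0.0913), *Mcub* among 9 genes of mitochondrial calcium uptake (0.0538) and *Trpc5* among 19 partners of STIM and IP3 receptors and TRPC channels (0.0508). *Camk2n1* was 111 to 123 CPM in females and 153 to 177 CPM in males, and the sexes did not overlap.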

How the data were processed

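RNA from EGFP-positive cells of 4 female and 4 male samples was sequenced as paired-end reads after library construction with a low-input kit. The authors trimmed reads with cutadapt, aligned them to mm10 with STAR and counted them with featureCounts, and they deposited raw counts per gene. Many entries carry names of a transcript assembly that is not described in the sources used here, so reads of overlapping entries may be divided. Counts were analysed in R 4.3.3 with edgeR 4.0.16 (TMM factors, filterByExpr, quasi-likelihood test, Benjamini-Hochberg adjustment over all genes tested, threshold 0.05) for male replicates 2 to 4 against the 4 females. Fold changes are male over female. Single genes were also tested by a two-sided exact permutation test of mean log2(CPM + 1) over all 35 splits. CPM used TMM factors, and levels per kilobase used exon lengths of GENCODE annotation for GRCm38, which is mm10. Total counts ranged from 18774578 to 31302588, and intervals of counting error were not used because replicates were available.

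All 48 genes were accounted for by role, with full values for those called, for those with samples that did not overlap and for the leading gene of each role. The genes, lists and tests were chosen with earlier results of these data known. Alternatives were DESeq2 1.42.0, other scalings, filters and dispersion, summed entries of a locus, all 8 samples, a replicate block and leaving out each sample. The fitting was tested on simulated counts for the 7 samples. It recovered 30.5% of 95 genes changed by 2 on the log2 scale and 63.5% of 96 changed by 3. Of its 92 calls 2.17% were false. A gene that did not pass the test may therefore still differ. Tables and figures were made with Python 3.11.15, pandas 2.3.3, numpy 2.4.6 and scipy 1.17.1.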

Additional observations from a re-analysis of the deposited data

Results flagged for a closer look

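In groups of 4 samples, 13 of the 96 groups formed by the 48 genes and the sexes held a sample whose gap to its nearest neighbour was large against the range of its group, where chance marks about 1 in 20 groups, or 4.8 of 96. The share over all genes is not given here, so the count cannot be read as a trait of these genes. Male replicate 1 was the marked sample in 8 of the 13 groups. It was high for *Prkcd* at 29.6 CPM (6.19 to 9.82 CPM in the other males), for *Camk2b* at 137 CPM (84.5 to 93.0 CPM), for *Camkk2* at 19.8 CPM (7.98 to 9.44 CPM), for *Ppp3cc* at 4.44 CPM (1.99 to 2.11 CPM), for *Nfatc4* at 10.8 CPM (2.11 to 3.30 CPM) and for *Atp2a3* at 12.8 CPM (3.22 to 3.93 CPM). It was low for *Prkd3* at 12.8 CPM (32.6 to 34.8 CPM) and for *Calm3* at 201 CPM (256 to 259 CPM).

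The other marked samples were female replicate 2 for *Prkd3* at 37.7 CPM (43.4 to 44.2 CPM in the other females), for *Camk2a* at 10.2 CPM (4.96 to 5.48 CPM) and for *Atp2b4* at 102 CPM (8.6 to 16.3 CPM), male replicate 3 for *Atp2b4* at 244 CPM (27.2 to 46.0 CPM), and male replicate 4 for *Prkci* at 23.6 CPM (28.8 to 29.7 CPM).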

How the results depend on the processing

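Over all genes, 471 (2.34%) were called. The count was 2329 (11.6%) with DESeq2, 808 (4.01%) with library size scaling and 177 (0.562%) with no filter beyond 1 count. It was 582 (3.64%) with at least 10 counts in every sample and 67 (0.342%) with all 8 samples. With 1 sample left out it was 88 to 171 (0.421% to 0.865%). Library size scaling moved the median of all genes to −0.24 and the split from 198 higher in males and 273 in females to 133 and 675. Of the 48 genes, 6 were called, and the count was 3 with no filter, 0 with all 8 samples and 0 to 4 with 1 sample left out. Of the pathway lists, 6 genes (4.23%) were called, and the count was 30 (21.4%) with DESeq2, against 11.6% of all genes. It was 12 with library size scaling, 2 with no filter and 10 with at least 10 counts in every sample. With all 8 samples it was 1 (0.714%), and with 1 sample left out it was 0 to 4. Deviations of male and female replicates 2 to 4 from the mean of their sex were correlated over genes. For same-numbered samples the correlations were −0.0286, −0.0182 and 0.0175. No label says what same-numbered samples share, and whether they shared a batch was not tested. With the replicate block 0 genes were called over all genes, of the 48 and of the lists, with 2954 (14.7%), 11 (23.9%) and 33 (23.2%) at an unadjusted p under 0.05 in edgeR. The direction turned for *Itpr1* (−0.18 with library size scaling, −0.032 with all 8 samples, −0.075 to 0.16 with 1 sample left out), *Camkk2* (0.088 with all 8 samples), *Ppp3ca* (0.20 with all 8 samples, 0.37 with the block, −3.39 to 0.42 with 1 left out), *Nfatc3* (−0.19 with library size scaling, −0.019 to 0.088 with 1 left out), *Atp2a2* (−0.18 to 0.046 with 1 left out), *Atp2b1* (0.000981 with upper-quartile factors, 0.00114 with at least 10 counts, −0.23 to 0.35 with 1 left out) and *Orai3* (−0.12 with library size scaling, −0.105 with all 8 samples). The cause was not tested. The 6 called genes kept their direction in every alternative run, with edgeR adjusted p of 0.0228 to 0.136 with 1 sample left out and 0.147 to 0.595 with all 8 samples. Genes near the floor of 3 counts, *Plcb2*, *Ryr1* and *Ryr3*, are limited by depth.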
